A study of Homo sapiens with 12 samples.

Results

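The 41 genes described here encode the machinery of autophagy and mitophagy, from the kinase complex that starts the process to the receptors that bring cargo to it. They were chosen by symbol, with earlier results of these data known, and matched through Ensembl identifiers. All 41 were found among the 57500 genes counted in each library. RNA was sequenced from HepG2, a human hepatocellular carcinoma line, in 12 libraries. WT was the wild-type line and shTST carried an shRNA against TST. The overTST line carried a codon-optimized TST with an N-terminal Myc tag in a lentiviral vector with the CMV promoter. By the study's methods both constructs were delivered by lentivirus, and transduced cells were selected with blasticidin. Each group had 4 libraries, and the cells of all groups were kept for 24 h in medium that held 400 µM glycine. TST (thiosulfate sulfurtransferase, or rhodanese) is a mitochondrial enzyme that detoxifies cyanide, and both lines were compared with WT to ask how gene expression differs when this enzyme is reduced or raised. No library of an empty vector or a control shRNA was used here, so transduction and selection cannot be told apart from the change in TST. Whether a line came from a single clone is not given in the sources used here. The replicates are called independent, which the study's methods define in general as work on separate days with fresh cultures, and no label ties a replicate number to a day.

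In macroautophagy a membrane cup grows around cytoplasm, closes into an autophagosome and fuses with a lysosome, where the content is degraded. The ULK1 kinase complex starts the cup, a class III phosphatidylinositol 3-kinase marks the membrane with lipid, ATG2 and ATG9 proteins supply it with phospholipid, and a ubiquitin-like conjugation system attaches ATG8 proteins (LC3 and GABARAP) to it. Receptors such as SQSTM1 bind both cargo and ATG8. In mitophagy the cargo is a mitochondrion, marked by the PINK1 kinase or carried by receptors in the outer membrane, and liver cells use both routes to turn over organelles and nutrient stores.

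Sequencing depth, as the sum of counts in a library, spanned 28866175 to 45120508 for WT, 27527854 to 33865386 for shTST and 22911380 to 27414142 for overTST. Levels in single libraries are given as CPM, the count relative to the library total after TMM scaling of all 12 libraries. Folds and p-values come from edgeR's quasi-likelihood test, with Benjamini-Hochberg adjustment over all genes tested. TST itself lay at 47.2, 47.5, 52.8 and 48.5 CPM in WT, 33.0, 33.6, 36.6 and 33.5 CPM in shTST and 51.8, 56.0, 61.6 and 62.1 CPM in overTST. It was lower in shTST (log2 fold change −0.52, SE 0.0549, adjusted p = 3.20e-06) and higher in overTST (log2 fold change 0.24, SE 0.0620, adjusted p = 0.00384). The shTST libraries lay below all WT libraries and the overTST libraries overlapped them. After a correction for gene length the overTST difference was 0.10, adjusted p = 0.201, and transcripts of the codon-optimized transgene need not be in these counts. All 9 hepatocyte markers were detected, with summed levels of 23459 to 26453 CPM in WT, 24690 to 28945 CPM in shTST and 21721 to 26239 CPM in overTST. The 4 leukocyte markers summed to 5.06 to 7.23 CPM over all libraries, with PTPRC and CD3E at 0 in WT and overTST. The 3 endothelial markers summed to 2.51 to 3.29 CPM in WT, 1.81 to 2.16 CPM in shTST and 3.40 to 3.91 CPM in overTST. The 4 fibroblast markers summed to 21.6 to 25.2 CPM in WT, 17.0 to 19.4 CPM in shTST and 15.9 to 17.9 CPM in overTST. Their part in the results below was not tested. Mitochondrially encoded genes took 6.91 to 11.98% of counts in WT, 6.84 to 8.66% in shTST and 10.8 to 11.7% in overTST.

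The level of each gene per exonic length was first set in order, as RPKM, the CPM divided by the exonic length in kb. In WT 37 of the 41 genes lay above 1 RPKM and 12 lay above 10 RPKM. PHB2, an inner mitochondrial membrane protein that acts as a mitophagy receptor, was the highest at 132 ± 4.29 RPKM (SD, n = 4). It was followed by FKBP8, an outer membrane mitophagy receptor, at 72.5 ± 5.09 RPKM. SQSTM1 (p62), the ubiquitin-binding cargo receptor, and GABARAP, an ATG8 protein, came next at 31.5 ± 3.35 and 31.1 ± 2.35 RPKM, a difference smaller than their SDs. ATG9A stood at 17.9 ± 0.836 RPKM, ahead of ATG13 at 15.2 ± 0.105 and ATG101 at 14.1 ± 0.971 RPKM, both subunits of the ULK1 complex. WIPI1, TAX1BP1 and ATG4B, at 12.2 ± 0.960, 12.1 ± 0.762 and 12.1 ± 0.707 RPKM, differed by less than their SDs. In all 3 groups PHB2 and FKBP8 were the first and the second in order, while GABARAP stood above SQSTM1 in shTST (32.4 ± 1.12 against 23.99 ± 1.49 RPKM) and in overTST (36.3 ± 0.374 against 31.7 ± 1.71 RPKM). ULK1 itself was lower, at 3.67 ± 0.398 RPKM, level with PINK1 at 3.68 ± 0.188 RPKM. At the lower end of the genes that passed the filter on low counts stood PIK3C3, the catalytic subunit of the class III kinase, at 1.41 ± 0.0692, ATG10, an E2-like enzyme, at 0.996 ± 0.107, and ATG2B, a lipid transfer protein, at 0.625 ± 0.0471 RPKM.

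**Figure D1:**
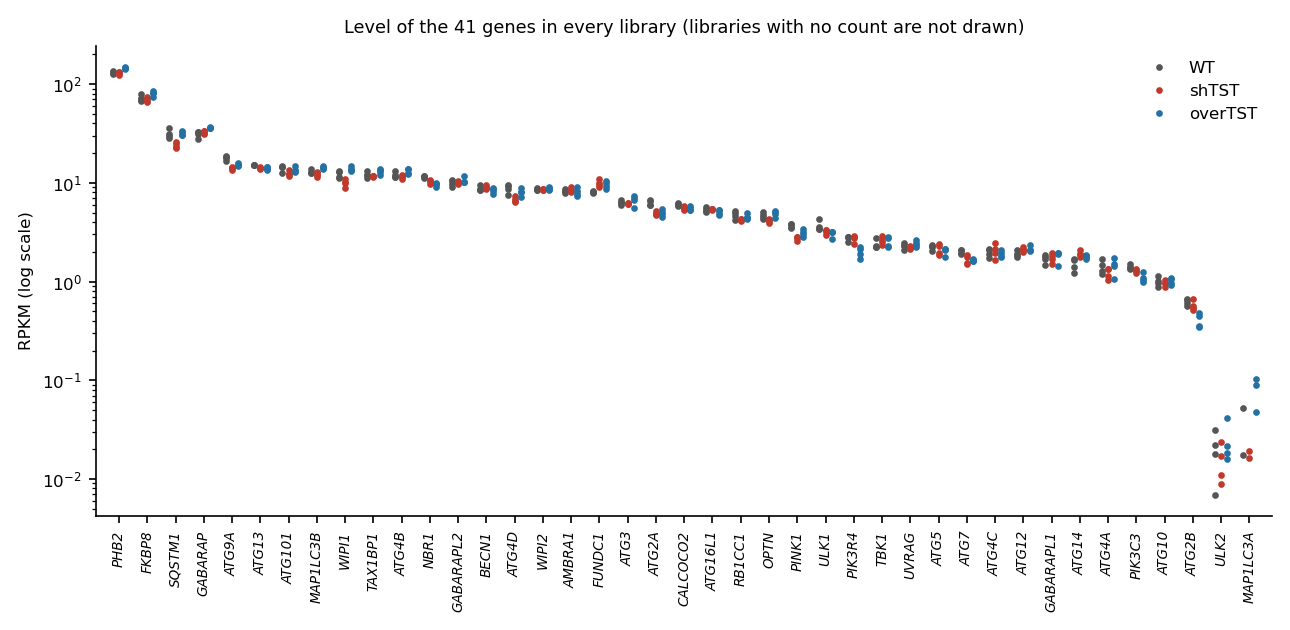
Level of the 41 genes in each of the 12 libraries, in RPKM on a log axis, ordered by the WT mean, with grey points for WT, red for shTST and blue for overTST. The genes range from PHB2 at 132 RPKM in WT to ULK2 and MAP1LC3A below 0.1 RPKM, and at this scale most points of the 3 groups coincide.

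Both genes that failed the filter have a close relative that is well expressed. ULK2, the paralog of ULK1, had 2 to 10 counts per library in WT, 3 to 7 in shTST and 4 to 11 in overTST. MAP1LC3A, the paralog of MAP1LC3B, had 0.0923, 0, 0 and 0.0307 CPM in WT, 0, 0.0335, 0.0290 and 0 CPM in shTST and 0, 0.0847, 0.158 and 0.182 CPM in overTST. These values came from at most 4 counts in a library, and no difference between the groups could be detected at this depth. A count of 0 in a library allows a level of up to 0.0665 to 0.131 CPM (3 counts of the library total, counting error only). Near-identical relatives of members had few counts as well, with 5 to 9 counts of MAP1LC3B2 in the WT libraries and none of GABARAPL3 in any of the 12 libraries. How reads that fit several genes were counted is not given in the sources used here. These counts therefore do not show how many reads are shared.

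The promoters of the members were read from RefSeq windows (GRCh38.p14) that span 250 bases before to 50 bases after a transcription start. Of the 41 genes 35 had a window, 44 windows in all, and 6 had none (ATG4D, FKBP8, MAP1LC3A, PINK1, RB1CC1 and UVRAG). Searches covered both strands for CACGTG (the core of the CLEAR element read by TFEB), TGATGNAA (a C/EBP-ATF element read by ATF4) and TGACNNNGC (an antioxidant response element read by NRF2). CACGTG was in 3 of the 44 windows (6.82%), in ATG14, ATG3 and TBK1, and in 7.26% of all 35114 windows. TGACNNNGC was in 3 windows (6.82%), in ATG101, CALCOCO2 and MAP1LC3B, against 13.3% of all windows, and TGATGNAA was in 0 of the 44 windows against 3.62%. A match is a run of letters and not a site of binding. The windows of ATG14, ATG101 and MAP1LC3B are shown because these are the members with a match that also passed in a comparison with WT. ATG3, TBK1 and CALCOCO2 have a match as well and passed in neither comparison. The calls of ATG101 in shTST and MAP1LC3B in overTST were each lost without any one of 6 libraries. Whether a match bears on expression was not tested. They are written from 5′ to 3′ on the strand of the gene, with the match in capitals. The ATG14 window lies at chr14:55411781-55412080, minus strand, the ATG101 window at chr12:52069728-52070027, plus strand and the MAP1LC3B window at chr16:87392086-87392385, plus strand.
ATG14: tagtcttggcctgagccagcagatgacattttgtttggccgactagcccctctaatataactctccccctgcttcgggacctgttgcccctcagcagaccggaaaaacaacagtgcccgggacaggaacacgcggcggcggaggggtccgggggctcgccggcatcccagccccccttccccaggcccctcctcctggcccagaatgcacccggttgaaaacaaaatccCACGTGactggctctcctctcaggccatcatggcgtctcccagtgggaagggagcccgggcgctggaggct
ATG101: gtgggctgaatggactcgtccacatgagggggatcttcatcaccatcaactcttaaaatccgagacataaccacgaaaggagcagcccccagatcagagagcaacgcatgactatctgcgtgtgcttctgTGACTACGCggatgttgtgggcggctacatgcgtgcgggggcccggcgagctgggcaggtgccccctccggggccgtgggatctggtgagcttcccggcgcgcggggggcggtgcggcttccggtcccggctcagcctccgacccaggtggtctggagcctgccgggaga
MAP1LC3B: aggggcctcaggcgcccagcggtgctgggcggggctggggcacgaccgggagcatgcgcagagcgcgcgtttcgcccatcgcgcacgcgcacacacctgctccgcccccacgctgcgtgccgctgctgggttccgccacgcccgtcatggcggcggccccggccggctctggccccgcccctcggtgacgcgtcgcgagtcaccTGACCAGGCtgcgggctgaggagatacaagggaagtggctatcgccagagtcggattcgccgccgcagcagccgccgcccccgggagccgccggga

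Of the members 39 passed the filter on low counts and were tested in each comparison. Since the members were chosen with earlier results of these data known, their shares beside those of all genes are not an independent test. In shTST, 11 members (28.2%) differed from WT at an adjusted p of 0.05 or less, against 16.1% of the 14584 genes tested. Of these, 2 were higher, FUNDC1 and ATG14 (6.69% of all genes were higher), and 9 were lower, ATG9A, ATG2A, SQSTM1, PINK1, ATG4D, WIPI1, NBR1, ATG7 and ATG101 (9.40% of all genes were lower). The median log2 fold change was −0.062 over the members and 0.0040 over all genes, and 28 of the 39 members had a value below 0. The libraries of the groups did not overlap in 13 members (33.3%), against 19.1% of all genes. With upper-quartile scaling the same 11 members were called, while 52.7% in place of 41.6% of all called genes were higher. In these bulk samples fewer cells of a kind and less RNA per cell cannot be told apart.

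In overTST, 15 members (38.5%) differed from WT, against 33.9% of the 14421 genes tested. The 6 higher members were GABARAP, PHB2, FUNDC1, FKBP8, WIPI1 and MAP1LC3B (15.7% of all genes were higher). The 9 lower members were ATG2B, ATG2A, NBR1, PIK3R4, ATG9A, PIK3C3, ATG7, ULK1 and PINK1 (18.2% of all genes were lower). The median log2 fold change was 0.0076 over the members and 0.0019 over all genes. Its sign was not settled, since it ran from −0.043 to 0.011 when 1 library was left out, below 0 in 6 of 8 cases (without WT replicate 1, 2 or 3 or overTST replicate 1, 2 or 3), and was 0.037 with a correction for length. The groups did not overlap in 14 members (35.9%), against 30.4% of all genes. The share of members that changed was close to the share over all genes, and 1 member, ATG2B, changed by 1.5-fold or more.

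**Figure D2:**
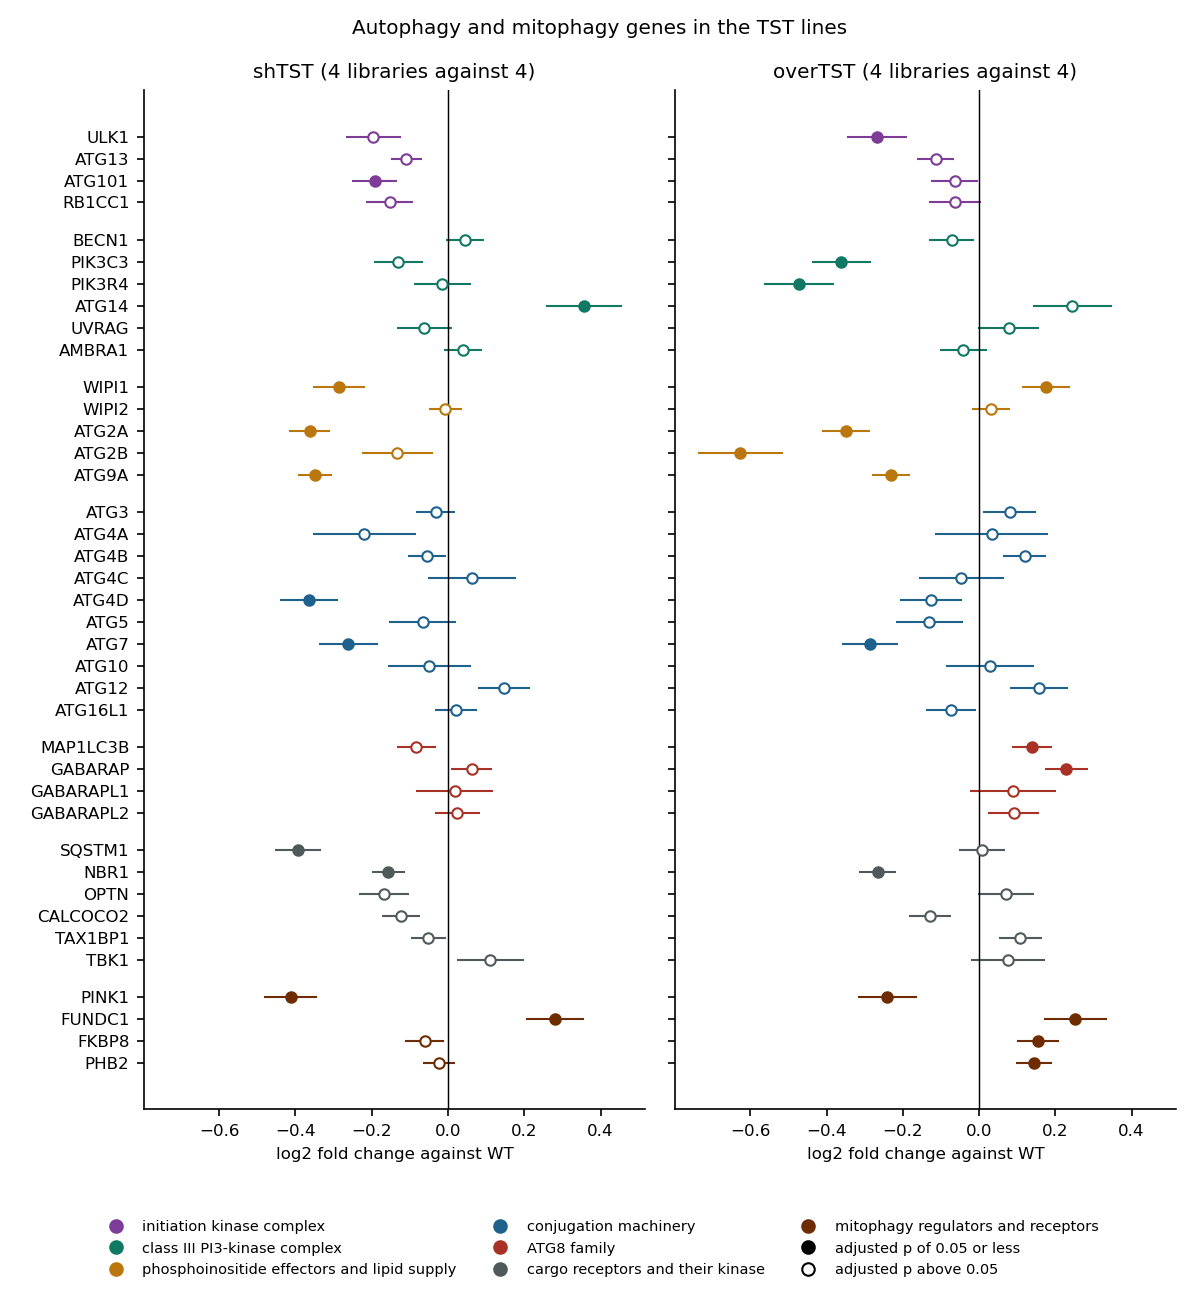
Log2 fold change against WT of the 39 members tested, in shTST (left) and overTST (right), coloured and grouped by role, with bars of 1 standard error. Filled points have an adjusted p of 0.05 or less (11 in shTST and 15 in overTST), and the lowest value, −0.63, is that of ATG2B in overTST.

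Both comparisons use the same WT libraries, so their values are given side by side. By their own tests 5 members were lower in both lines (ATG2A, ATG9A, ATG7, NBR1 and PINK1), 1 was higher in both (FUNDC1) and 1 was lower in shTST and higher in overTST (WIPI1). A further 3 passed as lower in shTST only (ATG101, ATG4D and SQSTM1) and 1 as higher in shTST only (ATG14). In overTST only, 4 passed as lower (ULK1, PIK3C3, PIK3R4 and ATG2B) and 4 as higher (MAP1LC3B, GABARAP, FKBP8 and PHB2). Passing in 1 test and not in the other does not show that the lines differ. The other 20 members tested passed in neither. The share of all genes with each pattern was not computed, so these counts do not set the members apart from other genes. A shift in the shared WT libraries moves both values of a gene the same way. Whether a member differs between the lines is answered by the direct comparison of shTST with overTST, in which 14 members (35.9%) passed, against 33.0% of the 14883 genes tested. Of these 3 were higher in shTST (PIK3R4, ATG2B and PIK3C3, with 16.9% of all genes higher). The 11 lower members were WIPI1, SQSTM1, MAP1LC3B, OPTN, FKBP8, PHB2, GABARAP, ATG4B, ATG4D, ATG9A and TAX1BP1 (16.1% of all genes lower). ULK1 (0.073, adjusted p = 0.507), ATG14 and ATG101, which passed against WT in 1 line only, did not pass between the lines. The groups did not overlap in 12 members (30.8%), against 29.2% of all genes.

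Within the initiation complex 1 of 4 tested subunits was lower in shTST and 1 in overTST. For this role and those below, 16.1% of all genes tested passed in shTST and 33.9% in overTST. ULK1 (ENSG00000177169, chr12:131894651-131923167, with coordinates here and below on GRCh38), the serine/threonine kinase that starts autophagy, had 26.0, 32.4, 27.3 and 26.1 CPM in WT, 22.4, 25.6, 25.6 and 24.2 CPM in shTST and 24.2, 24.4, 20.6 and 23.9 CPM in overTST. WT replicate 2 was the highest library, and every WT library lay above every library of both lines. ULK1 was lower in overTST (log2 fold change −0.27, SE 0.0780, adjusted p = 0.00961) and was at −0.20, SE 0.0718, adjusted p = 0.0651 in shTST. The overTST call was lost without WT replicate 2 (−0.19, adjusted p = 0.0553), without overTST replicate 3 (−0.21, adjusted p = 0.0580) and with the length correction (−0.17, adjusted p = 0.0949), and ULK1 passed in shTST without WT replicate 1 (−0.23, adjusted p = 0.0454) and without a filter on low counts (−0.21, adjusted p = 0.0280). ATG101, a subunit that stabilizes ATG13, fell in shTST (log2 fold change −0.19, SE 0.0589, adjusted p = 0.0276) from 45.2 ± 3.11 CPM to 39.6 ± 2.42 CPM (SD, n = 4 each), with overlapping groups. That call was lost when any of 6 libraries was left out (WT replicates 2, 3 and 4 and shTST replicates 2, 3 and 4), at adjusted p of 0.0533 to 0.111. ATG13, the regulatory subunit, had log2 fold changes of −0.11 and −0.11 with adjusted p of 0.0708 in shTST and 0.0729 in overTST. DESeq2 called it lower in both lines (adjusted p = 0.0329 and 0.0387), and the fit of all 12 libraries called it lower in overTST (adjusted p = 0.0430). RB1CC1 (FIP200), the scaffold, had −0.15 and −0.064 with adjusted p of 0.0875 and 0.502. ATG13 passed in overTST without overTST replicate 1 (−0.14, adjusted p = 0.0313) and RB1CC1 in shTST without WT replicate 2 (−0.21, adjusted p = 0.0163). Exons of ATG101 overlap a gene on the other strand that has no counts, over 19.2% of their length.

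The class III phosphatidylinositol 3-kinase complex had its clearest differences in overTST. PIK3R4 (ENSG00000196455, chr3:130678935-130746829), the VPS15 subunit that holds the kinase on the membrane, had 15.2, 15.2, 13.5 and 15.3 CPM in WT, 15.3, 12.9, 15.6 and 14.8 CPM in shTST and 12.018, 10.3, 9.00 and 11.5 CPM in overTST. The overTST libraries were the lowest 4 of the 12 and did not overlap the other groups. PIK3R4 fell by 27.9% in overTST (log2 fold change −0.47, SE 0.0910, adjusted p = 0.000300), was at −0.015, SE 0.0753, adjusted p = 0.920 in shTST, and differed between the lines (0.46, SE 0.0889, adjusted p = 0.000330). PIK3C3, the VPS34 catalytic subunit, also fell in overTST (log2 fold change −0.36, SE 0.0772, adjusted p = 0.000801), but after the length correction its value was −0.17, adjusted p = 0.0863. Its level was higher in shTST than in overTST (0.23, SE 0.0728, adjusted p = 0.0161), a call lost with the length correction (0.061, adjusted p = 0.554) and without shTST replicate 4 (0.21, adjusted p = 0.0577), overTST replicate 2 (0.21, adjusted p = 0.0521) or overTST replicate 4 (0.19, adjusted p = 0.0677). ATG14 (ENSG00000126775, chr14:55366392-55411858), the subunit that sends the complex to autophagosomes, had 7.10, 8.57, 6.21 and 8.31 CPM in WT, 10.6, 9.68, 9.71 and 8.96 CPM in shTST and 8.99, 8.56, 9.28 and 9.14 CPM in overTST. Every shTST library lay above every WT library, and the overTST libraries overlapped WT. ATG14 rose by 28.1% in shTST (log2 fold change 0.36, SE 0.0993, adjusted p = 0.0165), a call lost without shTST replicate 1 (0.32, adjusted p = 0.0605), and was at 0.24, SE 0.104, adjusted p = 0.0738 in overTST. It passed in overTST without WT replicate 2 (0.31, adjusted p = 0.0320) and with the length correction (0.28, adjusted p = 0.0403). Its promoter window is the one shown above with CACGTG 21 bases before the start. The counts behind ATG14 were 183 to 390 per WT library. BECN1, UVRAG and AMBRA1, regulatory members of the complex or its partners, passed in neither line, with log2 fold changes of −0.062 to 0.045 in shTST and −0.071 to 0.078 in overTST.

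Of the 5 phosphoinositide effectors and proteins of lipid supply, 3 were lower in shTST, and 3 were lower and 1 higher in overTST. ATG9A (ENSG00000198925, chr2:219209772-219229717), the scramblase of the vesicles that seed the membrane, had 137, 151, 144 and 149.9 CPM in WT, 111, 117, 114 and 114 CPM in shTST and 119.8, 123, 129 and 124 CPM in overTST. Every library of both lines lay below every WT library, and shTST below overTST. The direct call of ATG9A as lower in shTST than in overTST was lost without any one of 8 libraries (adjusted p = 0.0525 to 0.150). It was also lost without a filter on low counts (−0.098, adjusted p = 0.262). ATG9A fell by 21.5% in shTST (log2 fold change −0.35, SE 0.0440, adjusted p = 2.71e-05) and by 14.8% in overTST (log2 fold change −0.23, SE 0.0492, adjusted p = 0.000780), and the length correction took the overTST value to −0.12, adjusted p = 0.0671. ATG2A (ENSG00000110046, chr11:64894546-64917248), a bridge for phospholipids from the endoplasmic reticulum, had 47.1, 52.6, 46.6 and 51.5 CPM in WT, 37.1, 37.6, 40.3 and 38.8 CPM in shTST and 37.7, 42.7, 39.5 and 35.5 CPM in overTST. WT again lay above both lines, which overlapped each other. ATG2A fell by 22.2% in shTST (log2 fold change −0.36, SE 0.0546, adjusted p = 0.000128) and by 21.5% in overTST (log2 fold change −0.35, SE 0.0634, adjusted p = 0.000161), and the lines did not differ at the threshold (−0.014, SE 0.0606, adjusted p = 0.886, interval of the difference −0.13 to 0.10 at 95%). Its paralog ATG2B (ENSG00000066739, chr14:96279202-96363870) had 9.63, 9.93, 8.35 and 9.02 CPM in WT, 7.98, 8.41, 7.62 and 9.79 CPM in shTST and 6.57, 5.25, 5.13 and 7.05 CPM in overTST. The overTST libraries were the lowest 4, with 124 to 176 counts each, while shTST overlapped WT. ATG2B fell by 35.2% in overTST (log2 fold change −0.63, SE 0.111, adjusted p = 0.000125), the largest change of any member in a comparison with WT, and was at −0.13, SE 0.0932, adjusted p = 0.363 in shTST. The difference between the lines was 0.49 (adjusted p = 0.00124). ATG2A and ATG2B in overTST, and ATG9A and ATG2A in shTST, were called under every alternative run. The exons of ATG9A share 34.9% of their length with ABCB6 on the same strand, so reads there could be split between them or left uncounted. The RPKM of ATG9A was not adjusted for this.

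WIPI1 (ENSG00000070540, chr17:68420948-68457513), a protein that binds the lipid made by the kinase, was the 1 member that passed in opposite directions and was singled out after its values were seen. It had 38.4, 44.1, 38.8 and 44.4 CPM in WT, 33.8, 35.0, 29.8 and 37.5 CPM in shTST and 44.9, 46.6, 49.9 and 45.9 CPM in overTST. The shTST libraries were the lowest 4 of the 12 and the overTST libraries the highest 4. WIPI1 fell by 18.0% in shTST (log2 fold change −0.29, SE 0.0676, adjusted p = 0.00598) and rose by 12.9% in overTST (log2 fold change 0.18, SE 0.0622, adjusted p = 0.0313). The direct difference was −0.46 (SE 0.0669, adjusted p = 1.60e-05), the smallest p of any member between the lines, and it held under every alternative. The rise in overTST was lost without any one of WT replicates 1 and 3 and overTST replicates 2 and 3 (0.14 to 0.18, adjusted p = 0.0571 to 0.131), without a filter on low counts (0.15, adjusted p = 0.0985) and with the length correction (0.13, adjusted p = 0.113). WIPI2, the paralog that recruits ATG16L1, was at −0.0067 in shTST (adjusted p = 0.938) and 0.031 in overTST (adjusted p = 0.672). Exons of WIPI1 overlap ARSG on the other strand over 24.3% of their length, and whether strand was used in counting is not given in the sources used here.

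**Figure D3:**
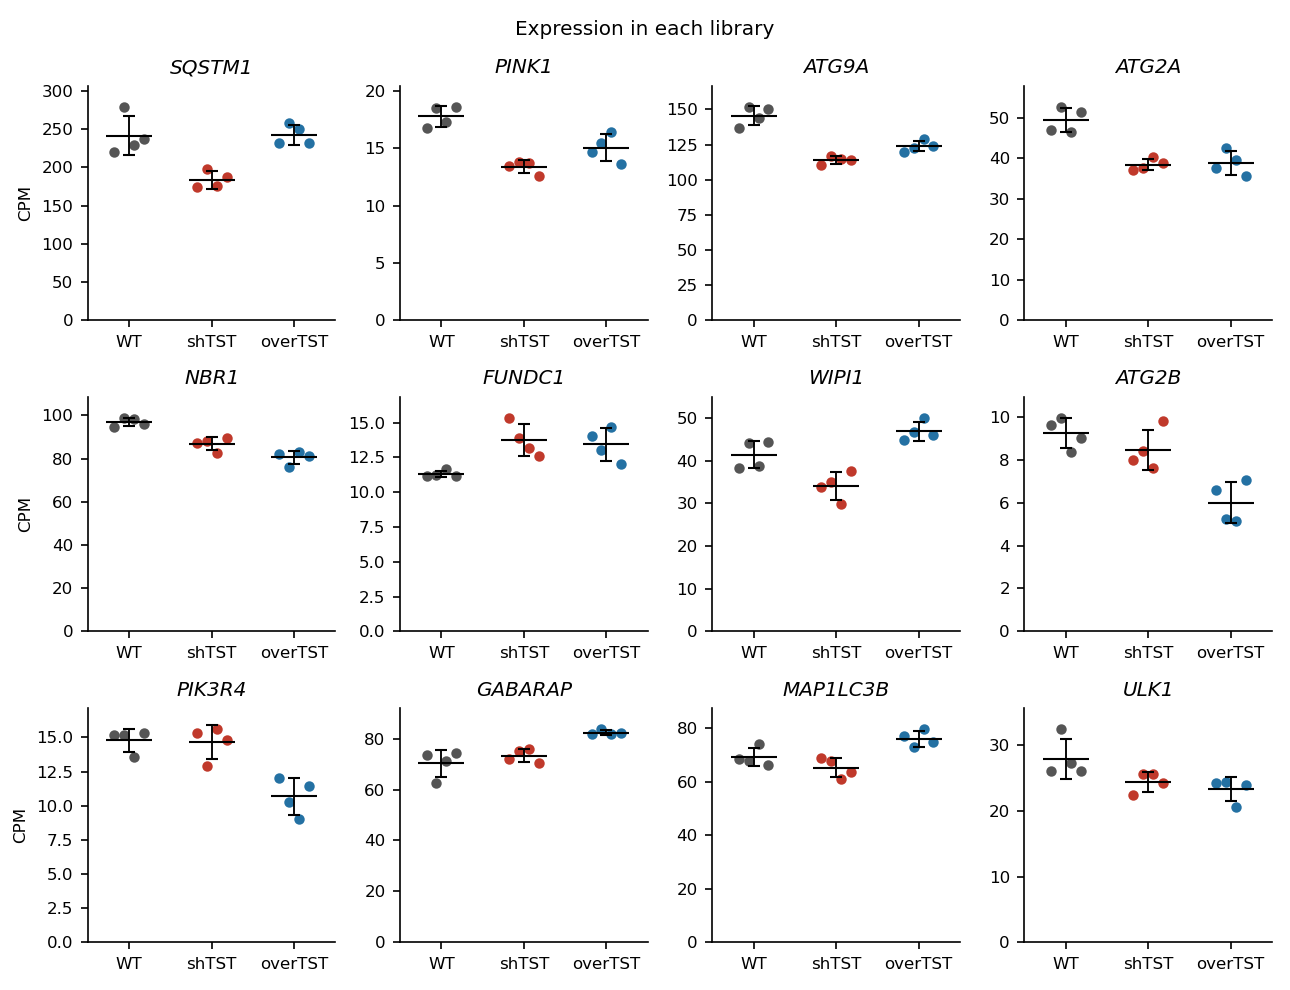
CPM of 12 members in each of the 12 libraries, with the mean as a black line and bars of 1 SD, each axis starting at 0. SQSTM1 is lower in shTST alone, ATG9A, ATG2A, PINK1 and NBR1 are lower in both lines, ATG2B and PIK3R4 are lower in overTST, FUNDC1 is higher in both lines, and WIPI1 is lower in shTST and higher in overTST.

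Of the 10 genes of the conjugation machinery 2 were lower in shTST, 1 was lower in overTST and 0 were higher at the threshold of either edgeR test or of DESeq2. At an unadjusted p under 0.05, 1 gene was higher in shTST (ATG12) and 2 in overTST (ATG4B and ATG12). ATG4D, one of the proteases that prime ATG8 proteins and release them from membranes, fell in shTST from 19.8 ± 1.97 CPM to 15.4 ± 0.925 CPM (SD, n = 4 each). The groups did not overlap (log2 fold change −0.36, SE 0.0760, adjusted p = 0.00248), and the call held under every alternative. In overTST ATG4D was at 18.2 ± 1.59 CPM (−0.13, SE 0.0819, adjusted p = 0.249), and with the length correction it passed (−0.25, adjusted p = 0.0182). ATG7, the E1-like enzyme that activates ATG8 and ATG12, was lower in shTST (log2 fold change −0.26, SE 0.0773, adjusted p = 0.0235) and in overTST (log2 fold change −0.29, SE 0.0737, adjusted p = 0.00400). All libraries of both lines lay below all WT libraries, with 17.8 ± 0.928 CPM in WT, 14.8 ± 1.61 CPM in shTST and 14.5 ± 0.299 CPM in overTST. The shTST call was lost without any one of WT replicates 1 and 3 and shTST replicates 1 and 3 (adjusted p = 0.0562 to 0.103), and the overTST call with the length correction (−0.16, adjusted p = 0.107). The other 8 genes, the proteases ATG4A, ATG4B and ATG4C, the E2-like enzymes ATG3 and ATG10, and ATG5, ATG12 and ATG16L1 of the complex that directs conjugation, had log2 fold changes of −0.22 to 0.15 in shTST and −0.13 to 0.16 in overTST. ATG4B was lower in shTST than in overTST (−0.17, SE 0.0528, adjusted p = 0.0125), as was ATG4D (−0.24, SE 0.0811, adjusted p = 0.0262). These calls were lost without shTST replicate 2 (adjusted p = 0.0504) or overTST replicate 2 (adjusted p = 0.0576) for ATG4B, and for ATG4D without any one of shTST replicates 2 and 4 and overTST replicates 2, 3 and 4 (adjusted p = 0.0503 to 0.112) or with the length correction (−0.13, adjusted p = 0.222). Against WT in overTST, ATG4B passed without WT replicate 3 (0.16, adjusted p = 0.0399) or overTST replicate 1 (0.15, adjusted p = 0.0460), and ATG12 without WT replicate 2 (0.21, adjusted p = 0.0475). Shared exons were 15.0% of ATG4D, with KRI1, and 18.1% of ATG7, with VGLL4, both on the other strand, and ATG10 overlaps the highly expressed RPS23 over 6.86%.

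In shTST 0 of the 4 ATG8 genes tested passed in edgeR, 0 had an unadjusted p under 0.05 and 0 passed in DESeq2, whereas 2 rose in overTST. GABARAP (ENSG00000170296, chr17:7240014-7242770) had 73.5, 62.6, 71.1 and 74.2 CPM in WT, 72.0, 75.1, 75.8 and 70.5 CPM in shTST and 81.8, 83.6, 81.9 and 82.1 CPM in overTST. The overTST libraries were the highest 4 of the 12, while shTST and WT overlapped. GABARAP rose by 17.2% in overTST (log2 fold change 0.23, SE 0.0559, adjusted p = 0.00260), and its value after the length correction was 0.11, adjusted p = 0.124. Its call as lower in shTST than in overTST was lost without shTST replicate 4 (−0.15, adjusted p = 0.0571) and without a filter on low counts (−0.15, adjusted p = 0.0565). The length correction also ended that call (−0.059, adjusted p = 0.403). MAP1LC3B (ENSG00000140941, chr16:87383995-87404779), the LC3 protein used as a marker of autophagosomes, had 68.7, 67.6, 74.1 and 66.3 CPM in WT, 68.8, 67.6, 61.2 and 63.7 CPM in shTST and 77.0, 72.8, 79.6 and 74.8 CPM in overTST. The highest WT library, replicate 3, lay within the overTST range, and shTST overlapped WT. MAP1LC3B rose by 10.1% in overTST (log2 fold change 0.14, SE 0.0529, adjusted p = 0.0461), was at −0.083, SE 0.0508, adjusted p = 0.289 in shTST, and was lower in shTST than in overTST without overlap (−0.22, SE 0.0514, adjusted p = 0.00170). The rise in overTST was lost without any one of WT replicates 1, 2 and 4 and overTST replicates 1, 3 and 4 (0.12 to 0.15, adjusted p = 0.0668 to 0.159) and without a filter on low counts (adjusted p = 0.207). The difference between the lines held under every alternative. GABARAPL1, a relative induced in some starved cells, had 6.92, 7.58, 5.98 and 7.27 CPM in WT, 7.37, 7.87, 6.17 and 6.84 CPM in shTST and 7.69, 8.01, 8.02 and 5.82 CPM in overTST. GABARAPL2 (GATE-16) had 29.6, 27.6, 32.2 and 31.5 CPM in WT, 31.1, 31.6, 30.1 and 29.8 CPM in shTST and 35.2, 31.1, 31.1 and 30.9 CPM in overTST. In both genes the 3 groups overlapped, with log2 fold changes of 0.017 and 0.024 in shTST and 0.088 and 0.090 in overTST. The 95% intervals in overTST ran from −0.13 to 0.31 for GABARAPL1 and from −0.042 to 0.22 for GABARAPL2. GABARAP exons overlap 2 other gene models, over 30.5% of their length on the same strand (a model with no counts) and over 25.2% on the other. How reads in shared exons were counted is not given, so the lack of counts there does not show that GABARAP lost no reads. The RPKM of GABARAP was not adjusted for this.

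Among the cargo receptors SQSTM1 differed most between the lines. SQSTM1 (ENSG00000161011, chr5:179806398-179838078) had 220.2, 278, 229.7 and 237 CPM in WT, 174, 198, 175 and 188 CPM in shTST and 232, 257, 249.8 and 231 CPM in overTST. Every shTST library lay below every library of WT and overTST, which overlapped, and WT replicate 2 was the highest of the 12. SQSTM1 fell by 23.9% in shTST (log2 fold change −0.39, SE 0.0597, adjusted p = 0.000137) and was at 0.0076, SE 0.0603, adjusted p = 0.937 in overTST, with a 95% interval of −0.11 to 0.13. The direct difference between the lines was −0.40 (SE 0.0602, adjusted p = 2.28e-05). The lower level in shTST and the difference between the lines held under every alternative. With a replicate block and length correction together SQSTM1 was called higher in overTST than in WT (0.11, adjusted p = 0.0476). NBR1 (ENSG00000188554, chr17:43170481-43211689), a receptor that binds ubiquitin together with SQSTM1, had 94.6, 98.6, 98.4 and 96.1 CPM in WT, 87.2, 88.1, 82.6 and 89.7 CPM in shTST and 82.0, 76.0, 83.1 and 81.2 CPM in overTST. Here both lines lay below WT in every library. NBR1 fell by 10.3% in shTST (log2 fold change −0.16, SE 0.0434, adjusted p = 0.0160), a call lost without shTST replicate 3 (−0.13, adjusted p = 0.0624), and by 16.8% in overTST (log2 fold change −0.27, SE 0.0494, adjusted p = 0.000204), which held under every alternative. OPTN, CALCOCO2 (NDP52) and TAX1BP1, ubiquitin-binding receptors, and TBK1, the kinase that phosphorylates them, passed in neither line, with values of −0.17 to 0.11 in shTST and −0.13 to 0.11 in overTST. OPTN passed in shTST without WT replicate 3 (−0.20, adjusted p = 0.0458). OPTN and TAX1BP1 were lower in shTST than in overTST (−0.24, SE 0.0695, adjusted p = 0.00971 and −0.16, SE 0.0504, adjusted p = 0.0159), without overlap in either gene. TAX1BP1 lost that call without overTST replicate 2 (adjusted p = 0.0572) or 3 (adjusted p = 0.0726), and after the length correction it was higher in overTST than in WT (0.24, adjusted p = 0.00138). Exons of SQSTM1 overlap MRNIP on the other strand over 20.7% of their length, and MRNIP had 1612 counts over the 12 libraries against 80484 of SQSTM1.

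All 4 mitophagy regulators and receptors passed in overTST, 3 higher and 1 lower, against 33.9% of all genes tested. In shTST 2 of them passed, against 16.1% of all genes. The 3 higher genes in overTST (FUNDC1, FKBP8 and PHB2) lost the call with the length correction and also without a filter on low counts. PINK1, the lower gene, kept it under both. PINK1 (ENSG00000158828, chr1:20633455-20651511), the kinase that gathers on damaged mitochondria, had 16.8, 18.5, 17.3 and 18.6 CPM in WT, 13.4, 13.8, 13.7 and 12.5 CPM in shTST and 14.6, 15.5, 16.4 and 13.6 CPM in overTST. WT lay above both lines in every library. PINK1 fell by 24.9% in shTST (log2 fold change −0.41, SE 0.0688, adjusted p = 0.000363), the lowest value of any member there, and by 15.4% in overTST (log2 fold change −0.24, SE 0.0773, adjusted p = 0.0177). The shTST call held under every alternative, while that in overTST was lost without WT replicate 4 (−0.22, adjusted p = 0.0610) or overTST replicate 4 (−0.20, adjusted p = 0.0731). PINK1-AS lies on the other strand over 39.4% of the PINK1 exons and had 2687 counts against 5612 of PINK1 over the 12 libraries. If strand was not used, reads there may be mixed between the genes or left uncounted. FUNDC1 (ENSG00000069509, chrX:44523639-44543001), an outer membrane receptor of hypoxia-induced mitophagy, had 11.2, 11.2, 11.6 and 11.2 CPM in WT, 15.3, 13.9, 13.2 and 12.6 CPM in shTST and 14.0, 13.0, 14.7 and 12.001 CPM in overTST. Every library of both lines lay above every WT library. FUNDC1 rose by 21.5% in shTST (log2 fold change 0.28, SE 0.0761, adjusted p = 0.0141) and by 19.1% in overTST (log2 fold change 0.25, SE 0.0830, adjusted p = 0.0207). The shTST call was lost without shTST replicate 1 (0.23, adjusted p = 0.0598) and the overTST call without overTST replicate 3 (0.21, adjusted p = 0.0945), without a filter on low counts (0.23, adjusted p = 0.0685) and with the length correction (0.081, adjusted p = 0.506).

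PHB2 (ENSG00000215021, chr12:6965327-6970825) had 327, 317, 341 and 336 CPM in WT, 311, 329, 332 and 326 CPM in shTST and 352, 365, 368 and 374 CPM in overTST. The overTST libraries were the highest 4, and shTST overlapped WT. FKBP8 (ENSG00000105701, chr19:18531751-18544077) had 197, 202, 231 and 212 CPM in WT, 195, 189, 215 and 207 CPM in shTST and 214, 248.7, 236 and 238 CPM in overTST, and all 3 groups overlapped. In overTST PHB2 rose by 10.5% (log2 fold change 0.14, SE 0.0465, adjusted p = 0.0181) and FKBP8 by 11.4% (log2 fold change 0.16, SE 0.0548, adjusted p = 0.0309), and in shTST they were at −0.024 (adjusted p = 0.747) and −0.060 (adjusted p = 0.465). The rise of PHB2 was lost without WT replicate 2, overTST replicate 3 or overTST replicate 4 (0.12 to 0.14, adjusted p = 0.0543 to 0.0577), and that of FKBP8 without any one of 6 libraries (WT replicates 1, 2 and 4 and overTST replicates 2, 3 and 4, adjusted p = 0.0518 to 0.116). Both also failed without a filter on low counts (adjusted p = 0.0956 and 0.0641) and with the length correction (0.041, adjusted p = 0.507 and 0.080, adjusted p = 0.244). Both were lower in shTST than in overTST (−0.17, SE 0.0423, adjusted p = 0.00314 for PHB2 and −0.22, SE 0.0540, adjusted p = 0.00312 for FKBP8), a call that PHB2 lost with the length correction (−0.077, adjusted p = 0.145).

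The changes in overTST followed the exonic length of the genes. Over all genes tested the median log2 fold change ran from 0.21 in genes of up to 1 kb to −0.16 in genes over 8 kb. Of the members, 1 measures 1 to 2 kb and was higher, 4 of 9 between 2 and 4 kb were higher, 1 of 20 between 4 and 8 kb was higher and 4 were lower, and 5 of 9 over 8 kb were lower. The share of all genes called in each class was not computed. Spearman's rho of the log2 fold change with exonic length was −0.50 over the 39 members and −0.40 over the 14421 genes, which share the same libraries. In shTST the values were −0.21 and −0.090. A correction for the trend in each library left 12 of the 39 members called in overTST, 6 higher and 6 lower, beside 4105 of all 14421 genes. Of the 12 members, 6 were also called without it (PIK3R4, ATG2A, ATG2B, MAP1LC3B, NBR1 and PINK1). The 6 members called after it alone were ATG14, WIPI2, ATG4B, ATG12 and TAX1BP1, which were higher, and ATG4D, which was lower. In shTST all 11 calls held with the correction, beside 2615 of all 14584 genes called. Between the lines rho was 0.37 over the members and 0.36 over the 14883 genes, and the correction ended 4 calls (PIK3C3, ATG4D, GABARAP and PHB2) and added 5 (RB1CC1, UVRAG, WIPI2, ATG3 and PINK1). With it 15 members were called between the lines, beside 4142 of the 14883 genes. The cause of the trend was not tested.

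**Figure D4:**
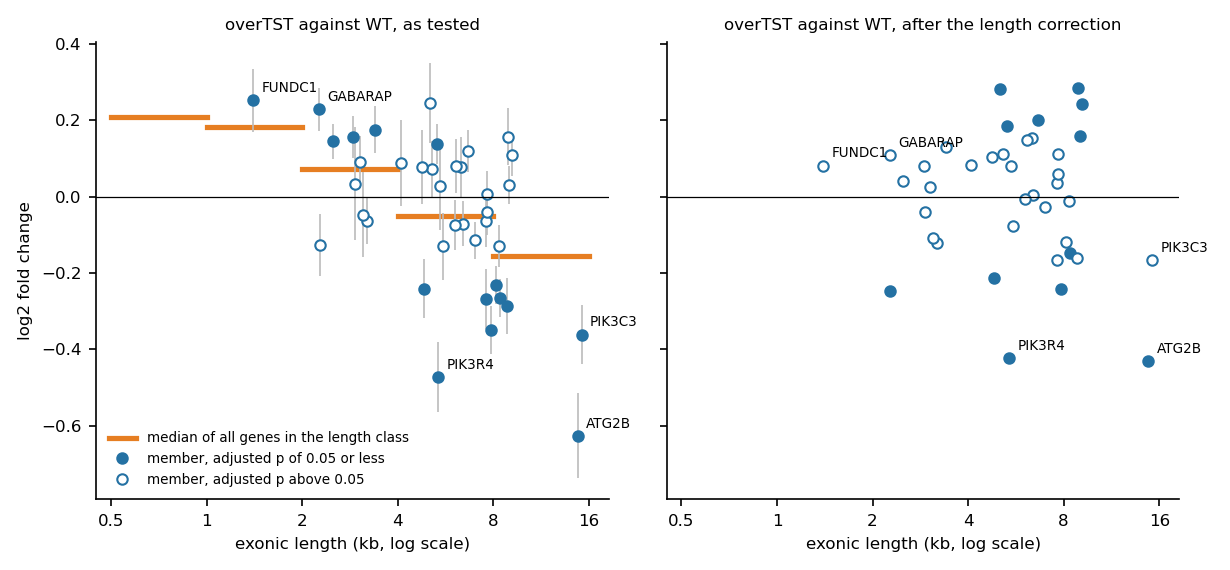
Log2 fold change of the 39 members in overTST against WT plotted on exonic length (kb, log axis), as tested (left, bars of 1 standard error, orange lines for the median of all genes in each length class) and after a correction for length (right). The class medians fall from 0.21 to −0.16, as tested no member over 8 kb was called as higher and none under 4 kb as lower. After the correction WIPI2, ATG12 and TAX1BP1, over 8 kb, were called as higher and ATG4D, under 4 kb, as lower, and ATG2B and PIK3R4 were the lowest.

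The wider pathway was read from 4 further lists, beside 16.1% of all genes tested that passed in shTST and 33.9% in overTST. Of 36 tested genes of nutrient sensing upstream of autophagy (mTORC1, AMPK and TFEB), 2 were higher and 6 lower in shTST, and 7 were higher and 8 lower in overTST. In shTST the smallest p were those of RPTOR (−0.25) and MTOR (−0.23), the scaffold and the kinase of mTORC1, which represses autophagy, with adjusted p of 0.00219 and 0.00365. In overTST they were those of FNIP2, a partner of folliculin (−0.58, adjusted p = 5.24e-06), and PRKAB2, a subunit of AMPK (−0.55, adjusted p = 1.53e-05). Of 17 tested genes of other core and trafficking steps 1 was higher and 3 lower in shTST, led by TECPR1 (−0.25, adjusted p = 0.00797) and WDR45 (−0.25, adjusted p = 0.0147), the latter a relative of WIPI1. In overTST 4 were higher and 3 lower, led by STX17, the SNARE of the autophagosome (−0.62, adjusted p = 1.92e-05), and EPG5, its tether to the lysosome (−0.65, adjusted p = 3.26e-05). With the length correction the values in overTST were −0.42, adjusted p = 0.000202 for FNIP2, −0.50, adjusted p = 3.79e-05 for PRKAB2, −0.60, adjusted p = 3.04e-05 for STX17 and −0.47, adjusted p = 0.000730 for EPG5.

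Of 13 other mitophagy genes tested, 1 was higher and 2 lower in each line. The ubiquitin ligases MUL1 (−0.18, adjusted p = 0.0106) and HUWE1 (−0.19, adjusted p = 0.0112) had the smallest p in shTST, where MUL1, HUWE1 and WDR45 above each lost the call under an alternative, and HUWE1 (−0.42, adjusted p = 6.26e-06) and TOMM7, a subunit of the import pore that holds PINK1 (0.41, adjusted p = 5.94e-05), had them in overTST. Of 11 other receptors and adaptors tested 1 was higher and 4 lower in shTST, and 2 were higher and 3 lower in overTST. HDAC6, a deacetylase that binds ubiquitin (−0.20, adjusted p = 0.00678), and NCOA4, the receptor for ferritin (−0.18, adjusted p = 0.00913), led in shTST, and WDFY3, an adaptor for protein aggregates (−0.68, adjusted p = 1.78e-06), and SEC62, a receptor for endoplasmic reticulum (0.30, adjusted p = 9.40e-05), in overTST. With the length correction the values in overTST were −0.21, adjusted p = 0.00190 for HUWE1, 0.26, adjusted p = 0.00244 for TOMM7, −0.47, adjusted p = 5.71e-05 for WDFY3 and 0.41, adjusted p = 6.79e-06 for SEC62. The list medians lay between −0.10 and 0.018 in shTST and between −0.011 and 0.070 in overTST, where the medians over all genes were 0.0040 and 0.0019. With the length correction the medians in overTST lay between −0.0050 and 0.071.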

How the data were processed

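RNA of 12 HepG2 cultures (4 WT, 4 shTST, 4 overTST) was sequenced. The deposited values are whole-number counts per gene of each library, and per the labels the authors made them with Trimmomatic 0.36, STAR 2.5.2b and featureCounts of Subread 1.5.2 on GRCh38. The library kit, strand setting and annotation release are not given in the sources used here. Exonic lengths, coordinates and overlaps were taken from the gene models given with the deposited counts. Symbols were taken from GENCODE 29 through Ensembl identifiers, and 56410 of the 57500 identifiers had a symbol. Members, roles and lists were chosen with earlier results of these data known.

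Genes were filtered with filterByExpr, scaled by TMM and tested with edgeR 4.0.16 (R 4.3.3, quasi-likelihood), with Benjamini-Hochberg adjustment over all genes tested and calls at an adjusted p of 0.05 or less. Both comparisons with WT used their own 8 libraries, and shTST against overTST used a fit of all 12. The fits were tested on simulated data first. Values by library are given for the 4 higher and 4 lower called members with the smallest p in each comparison with WT, the ATG8 family, SQSTM1, PINK1, FUNDC1 and ULK1, and for WIPI1, which was added after its values were seen. Of each wider list the 2 called genes with the smallest p were named. Alternatives were DESeq2 1.42.0, RLE or upper-quartile scaling, other filters, another set of libraries, a length correction (lowess, span 0.3), a block on replicate number, removal of mitochondrially encoded genes and leaving out each library. Within groups, chi-square per gene of library pairs was 3.58 to 35.3, so no library was a duplicate. Promoters came from RefSeq.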

Additional observations from a re-analysis of the deposited data

Results flagged for a closer look

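Of 123 sets of 4 libraries (41 members in 3 groups), 8 had a library far from the other 3, and chance alone flags about 1 in 20 sets. In WT, BECN1 stood high in replicate 1 (60.6 CPM, others 54.4 to 55.3), TBK1 high in replicate 2 (13.1 CPM, others 10.7 to 10.8), FUNDC1 high in replicate 3 (11.6 CPM, others 11.2) and PIK3R4 low in replicate 3 (13.5 CPM, others 15.2 to 15.3). In overTST, ULK1 stood low in replicate 3 (20.6 CPM, others 23.9 to 24.4), ATG5 low in replicate 2 (9.83 CPM, others 11.5 to 11.9), GABARAPL1 low in replicate 4 (5.82 CPM, others 7.69 to 8.02) and GABARAPL2 high in replicate 1 (35.2 CPM, others 30.9 to 31.1). The lower call of ULK1 in overTST was lost without overTST replicate 3. In shTST 0 of 41 sets had such a library.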

How the results depend on the processing

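Over all members, comparisons and alternatives, 2055 results kept their direction and side of the threshold, 91 lost the call, 47 gained it and 69 changed sign. These 69 came from 25 values within 0.079 of 0 on the log2 scale, 0 of which were called in the main fit or in a setting that changed their sign. Without a filter on low counts 1 member was higher in overTST than WT, against 6 with it. Leaving out 1 library gave 0 to 2 members higher and 6 to 9 lower in shTST than WT, 1 to 6 higher and 8 to 10 lower in overTST than WT, and 2 to 4 higher and 7 to 11 lower in shTST than overTST. The lowest counts came without shTST replicate 1 (0 higher in shTST), overTST replicate 3 (1 higher in overTST, with 3 without WT replicate 1 or overTST replicate 4) and overTST replicate 2 (7 lower in shTST than overTST). The median of the members over the libraries left out ran from −0.086 to −0.049 in shTST, from −0.043 to 0.011 in overTST and from −0.084 to −0.037 between the lines. The cause was not tested.

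Same-numbered libraries correlated at −0.053 to 0.080 in their deviations from the group means, none over 0.1, and no label ties a number to a day, so the libraries were not taken as paired. Between WT and shTST the same number was the best match for replicates 1, 2 and 3. Between overTST and either other group it was so for replicate 1 alone. The study's reporting summary states in general that each experimental run held both control and treated samples. Whether these cultures were paired by day is not settled. With a replicate block 12 members were lower in shTST than WT in place of 9 (added ULK1, ATG13 and RB1CC1), and 10 with a replicate block and length correction together. The block alone changed no other call of a member. Over all genes the block raised the number of calls from 2346 to 2980 in shTST and from 4893 to 5166 in overTST. Between the lines it raised them from 4907 to 5232. Depth limits ULK2 and MAP1LC3A, which had at most 11 counts in a library.

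With upper-quartile scaling the values that changed sign were PIK3R4 at 0.0063 and WIPI2 at 0.014 in shTST and ATG13 at −0.0043 and CALCOCO2 at −0.0038 between the lines. With the length correction the values that changed sign were WIPI2 at 0.015 in shTST, RB1CC1 at 0.037, BECN1 at 0.0043, AMBRA1 at 0.060 and ATG4A at −0.041 in overTST and ULK1 at −0.012, ATG13 at −0.070, AMBRA1 at −0.0062, ATG7 at −0.082 and CALCOCO2 at −0.093 between the lines. With a replicate block and length correction the values that changed sign were WIPI2 at 0.015 in shTST, RB1CC1 at 0.037, BECN1 at 0.0040, AMBRA1 at 0.058 and ATG4A at −0.039 in overTST and ULK1 at −0.013, ATG13 at −0.070, AMBRA1 at −0.0047, ATG7 at −0.084 and CALCOCO2 at −0.093 between the lines. With no filter on low counts the values that changed sign were SQSTM1 at −0.015 in overTST and ATG2A at 0.0062 and ATG12 at 0.0096 between the lines. Leaving out 1 library took the values in shTST across 0 for PIK3R4 from −0.050 to 0.047, WIPI2 from −0.020 to 0.016, ATG4C from −0.025 to 0.16, ATG10 from −0.11 to 0.026, ATG16L1 from −0.00025 to 0.057, GABARAPL1 from −0.042 to 0.082, GABARAPL2 from −0.021 to 0.058 and PHB2 from −0.045 to 0.0023. Leaving out 1 library took the values in overTST across 0 for AMBRA1 from −0.10 to 0.0030, ATG4A from −0.079 to 0.15, ATG4C from −0.11 to 0.00040, ATG10 from −0.036 to 0.10 and SQSTM1 from −0.033 to 0.082. Leaving out 1 library took the values between the lines across 0 for ATG13 from −0.018 to 0.027, ATG2A from −0.053 to 0.033, ATG5 from −0.0047 to 0.12, ATG7 from −0.033 to 0.069, ATG12 from −0.037 to 0.035, CALCOCO2 from −0.015 to 0.030, TBK1 from −0.024 to 0.10 and FUNDC1 from −0.026 to 0.074.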
